A study of Mus musculus with 24 samples.

Results

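The genes described here are the cyclins and cyclin-dependent kinase regulators of S phase and mitosis, taken from a list of 10 genes. Each gene was read through 1 main probe set, the one with the highest mean signal over all 24 arrays. In the annotation used here 9 of the 10 genes have a probe set, *Ccna2*, *Ccnb2*, *Ccne1*, *Ccne2*, *Ccnf*, *Cdk1*, *Cdk2*, *Cdc25a* and *Wee1*, and the remaining 1 is not analysed here. The 9 lie on chromosomes 3 (*Ccna2*), 4 (*Ccne2*), 7 (*Ccne1*, *Wee1*), 9 (*Ccnb2*, *Cdc25a*), 10 (*Cdk1*, *Cdk2*) and 17 (*Ccnf*). All 9 were among the 12050 genes whose main probe set was kept by a filter on low signal, out of 18193 genes with a probe set that matches 1 gene.

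The arrays measured sorted CD4 CD8 double-negative (DN) thymocytes, the earliest T cell precursors, of young mice (6 to 8 weeks by the labels, somewhat younger at the lower end by the study's methods). The labels call the background outbred ICR, and by the methods transgenic mice kept on CD1 were mated with *Prkdc* Scid/Scid mice of CB17 ICR origin kept on ICR. Animals of the genotype *IgHμ-TLX1* Tg *Prkdc* Scid/Scid, called TLX1 here, were compared with *Prkdc* Scid/Scid animals, the control. Both genotypes lack functional DNA-PK, so their thymocytes cannot join rearranged receptor genes and arrest at DN3, and neither is a wild type. The TLX1 transgene was driven by the *IgHμ* promoter, which belongs to B cells and is only weakly active in thymocytes. Each genotype gave 4 pools of 2 to 5 mice, and each pool was sorted into DN1 (CD44+CD25-), DN2 (CD44+CD25+) and DN3 (CD44-CD25+), with 1 array per stage. Pools are therefore the unit of replication. Females made up TLX1 pools 1 and 4 as well as control pools 2 and 4, and males the rest.

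Cyclins are the regulatory partners of the Cdk kinases, and their levels rise and fall with the cell cycle. Cyclin E with Cdk2 starts DNA replication, cyclin A2 works with Cdk2 in S phase and with Cdk1 in G2, and cyclin B with Cdk1 drives mitosis. Wee1 holds the Cdks inactive by phosphorylating them, Cdc25a removes that phosphate, and cyclin F is the substrate receptor of a ubiquitin ligase that acts in S and G2 phase. In the thymus, precursors divide repeatedly at the DN2 stage and leave the cycle at DN3 until they pass the pre-T cell receptor checkpoint.

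Genes that peak late in the cycle often carry the cell cycle homology region (CHR, TTTGAA) and the CCAAT box near their start, whereas genes of the G1 to S transition often carry E2F sites. RefSeq promoters (GRCm38.p6) were given for 6 of the 9 genes, and the 250 bases before the start were searched on both strands. *Ccna2*, *Ccne2* and *Wee1* had no entry. The 4 below are shown because *Ccnb2*, *Cdk1* and *Ccnf* varied together over the arrays and *Ccne1* did not follow them. *Cdk2* also varied with *Ccnb2* (Pearson correlation 0.88), and the promoters of *Cdk2* and *Cdc25a* are not printed. Each is written 5′ to 3′ on the gene's strand, with matches to the 3 motifs in capitals, and a match on the opposite strand reads as its reverse complement.

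*Ccnb2*, chr9:70421555-70421804, minus strand: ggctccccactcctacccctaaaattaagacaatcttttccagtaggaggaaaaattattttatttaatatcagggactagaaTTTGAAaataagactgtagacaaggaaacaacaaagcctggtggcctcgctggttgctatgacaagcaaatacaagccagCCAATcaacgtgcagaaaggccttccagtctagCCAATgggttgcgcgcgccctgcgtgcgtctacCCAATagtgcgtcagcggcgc
*Cdk1*, chr10:69352913-69353162, minus strand: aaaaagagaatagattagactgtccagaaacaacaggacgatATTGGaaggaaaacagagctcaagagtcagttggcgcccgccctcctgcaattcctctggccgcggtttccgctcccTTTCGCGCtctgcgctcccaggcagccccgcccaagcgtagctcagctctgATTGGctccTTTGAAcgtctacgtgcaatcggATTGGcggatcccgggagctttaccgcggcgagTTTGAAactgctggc
*Ccnf*, chr17:24251410-24251659, minus strand: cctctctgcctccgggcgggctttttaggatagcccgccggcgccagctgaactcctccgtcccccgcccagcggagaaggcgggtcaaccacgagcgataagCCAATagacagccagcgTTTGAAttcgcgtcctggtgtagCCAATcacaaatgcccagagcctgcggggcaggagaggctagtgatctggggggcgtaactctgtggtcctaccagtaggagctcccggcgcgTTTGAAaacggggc
*Ccne1*, chr7:38107491-38107740, minus strand: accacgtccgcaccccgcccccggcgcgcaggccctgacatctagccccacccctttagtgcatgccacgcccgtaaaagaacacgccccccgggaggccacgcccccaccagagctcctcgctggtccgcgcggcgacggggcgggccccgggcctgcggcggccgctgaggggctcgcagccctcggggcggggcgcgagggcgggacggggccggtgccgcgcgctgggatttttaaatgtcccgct

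The CHR letters were found in 3 of the 6 promoters, those of *Ccnb2*, *Ccnf* and *Cdk1*, and in 16.3% of the 27025 promoters of the same length. In *Cdk1* a CHR match began 15 bases before the start and another 71 bases before it, and in *Ccnf* matches began 14 and 130 bases before the start. The CCAAT letters were found in 5 of the 6, all except *Ccne1*, against 34.5% of all promoters. *Ccnb2* held 3 CCAAT matches, the first bases of which lay 87, 54 and 21 bases before the start. The E2F site was spelled as TTTCCCGC, TTTCGCGC, TTTGCCGC or TTTGGCGC and was found in *Cdk1*, *Cdk2* and *Cdc25a*, against 1.91% of all promoters. No match overlapped another. These are matches of letters within the window, and the *Ccne1* window held none of the 3.

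Values are MAS5 signals on a linear scale with a 2% trimmed mean of 150 on every array. Signals under 1 were set to 1, and differences are in log2 units. A signal of 1 probe set is not comparable with that of another, so levels are compared between arrays only. The 24 arrays had median signals of 15.1 to 24.3. The sort was visible in its own markers: *Cd44*, the adhesion receptor that marks DN1, was at 892 to 1913 on the 8 DN1 arrays and at 9.52 to 29.0 at DN3, and *Il2ra*, which encodes CD25, was at 488 to 1171 at DN1 and at 4323 to 5541 at DN3. In bulk samples fewer cells of a type and less RNA per cell cannot be told apart.

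The DN1 arrays of control pool 3 and TLX1 pool 2 stood apart. These are the pools in which, by the study's sorting record, a sizeable share of the thymocytes lay outside the DN1 to DN3 gates. At DN1, *Rag1*, which encodes a subunit of the recombinase that cuts receptor genes, was at 3769 in control pool 3 and at 3193 in TLX1 pool 2, against 35.5 to 199 in the other 6 pools. On the DN3 arrays it was at 2170 to 3425, so 1 of these DN1 values lay within the DN3 range and the other above it. *Ptcra*, which encodes the pre-T cell receptor α chain, was at 1296 and 677 against 20.8 to 102. *Cd44* was lowest in these pools, at 892 in control pool 3 and at 1268 in TLX1 pool 2, with 1373 or more elsewhere, and *Il2ra* was at 574 and 523. Over the whole list of T lineage markers (8 of 10 matched), control pool 3 was highest of its DN1 group for 5 genes and lowest for 2. TLX1 pool 2 was highest for 6 and lowest for 0. The summed signal of that list was 21858 and 21143 in these arrays, against 13804 to 17819 in the other 6 DN1 arrays. *Rag1* and *Ptcra* belong to the list and make up most of that gap, so the sum is not separate from their values above. The 7 matched NK markers were lowest in control pool 3 for all 7 and in TLX1 pool 2 for 5, with sums of 13875 and 17884 against 23479 to 32538 elsewhere. For 8 of the 9 cell cycle genes, *Ccne1* being the exception, both pools were above all other 6 at DN1. The share of all probe sets with this pattern was not counted, so it is not shown to be particular to these genes. The part of these features in the results was not tested, and the changes from DN1 to DN2 and the counts of calls between stages are also given without both pools.

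**Figure D1:**
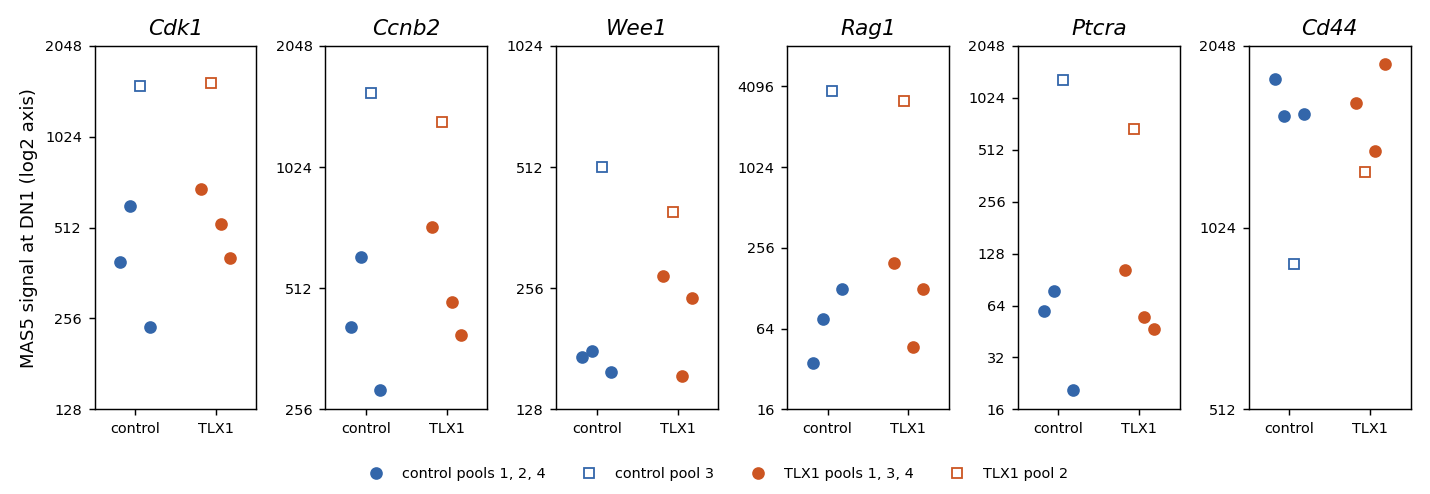
MAS5 signals (log2 axis) on the 8 DN1 arrays of 3 cell cycle genes (*Cdk1*, *Ccnb2*, *Wee1*) and of *Rag1*, *Ptcra* and *Cd44*, by genotype. Each point is 1 pool, and the open squares are control pool 3 and TLX1 pool 2, which lay above the other 6 pools in the first 5 panels and below them for *Cd44*.

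The mitotic kinase and its cyclins come first. *Cdk1*, the kinase of mitotic entry, had signals of 395, 603, 1507 and 240 in control pools 1 to 4 and of 688, 1539, 525 and 405 in TLX1 pools 1 to 4 at DN1. At DN2 it was at 1162, 1082, 864 and 870 in control pools and at 1279, 1274, 1149 and 1295 in TLX1 pools. At DN3 the values were 628, 594, 1230 and 566 in control pools and 869, 917, 720 and 749 in TLX1 pools. In 6 of the 8 pools *Cdk1* was higher at DN2 than at DN1, and the exceptions were control pool 3 and TLX1 pool 2. The SD over the 8 arrays was 0.93 log2 units at DN1, 0.24 at DN2 and 0.37 at DN3, so the pools differed most at DN1. *Cdk1* rose by 0.86 (SE 0.25, adjusted p = 0.0090) from DN1 to DN2 and from there to DN3 had a log2 change of -0.54 (SE 0.25, adjusted p = 0.17), in a limma fit of the 24 arrays that took the pool as a block. The rise of *Cdk1* was 1.33 without control pool 3 and TLX1 pool 2 (SE 0.15, adjusted p = 3.3e-05).

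*Ccnb2* encodes cyclin B2, a partner of Cdk1 in mitosis. At DN1 it was at 409, 612, 1564 and 286 in control pools 1 to 4 and at 728, 1325, 472 and 391 in TLX1 pools. At DN2 it was at 1249, 1119, 1151 and 1155 in control pools and at 1380, 1410, 1337 and 1491 in TLX1 pools. The DN2 values were close together in both genotypes, and the 4 TLX1 values lay above the 4 control values. At DN3 it was at 809, 665, 1274 and 652 in control pools and at 921, 1064, 848 and 1055 in TLX1 pools. From DN1 to DN2 it rose by 1.06 (SE 0.24, adjusted p = 0.0014), a 2.09-fold change, and was higher in 7 of 8 pools. The rise of *Ccnb2* was 1.47 without control pool 3 and TLX1 pool 2 (SE 0.17).

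*Ccna2*, which encodes cyclin A2, ran from 312 to 1818 at DN1 with a median of 663, from 927 to 1515 at DN2 with a median of 1239, and from 502 to 1756 at DN3 with a median of 828. It rose by 0.84 (SE 0.22, adjusted p = 0.0038) from DN1 to DN2 and was higher in 6 of 8 pools, and without both pools that stand apart the rise was 1.18 (SE 0.19). Its other probe set had a change of 0.52 (SE 0.23, adjusted p = 0.063), which did not pass. *Ccnf*, which encodes cyclin F, was at 64.7, 86.8, 225 and 71.1 in control pools and at 112, 199, 99.2 and 86.2 in TLX1 pools at DN1. It had a change of 0.44 (SE 0.20, adjusted p = 0.065) from DN1 to DN2, which did not pass. Without control pool 3 and TLX1 pool 2 the change of *Ccnf* was 0.80 (SE 0.12, adjusted p = 0.00017), and each of the 6 remaining pools was higher at DN2.

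The S phase side split between both E cyclins. *Ccne2*, which encodes cyclin E2, was at 37.5, 60.6, 355 and 79.4 in control pools 1 to 4 and at 125, 160, 60.2 and 124 in TLX1 pools at DN1. At DN2 it was at 155, 162, 308 and 287 in control pools and at 202, 113, 181 and 402 in TLX1 pools. It rose by 1.07 (SE 0.26, adjusted p = 0.0023), or 2.10-fold, and was higher in 6 of 8 pools, with a rise of 1.55 (SE 0.17) without both pools that stand apart. At DN3 its signals were 81.1, 99.2, 252 and 173 in control pools and 100, 143, 117 and 265 in TLX1 pools, a change of -0.57 from DN2 (SE 0.26, adjusted p = 0.16).

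*Ccne1*, which encodes cyclin E1, did not rise at DN2. At DN1 it was at 176, 313, 204 and 108 in control pools 1 to 4 and at 200, 268, 259 and 108 in TLX1 pools. At DN2 it was at 159, 167, 155 and 106 in control pools and at 215, 176, 249 and 135 in TLX1 pools, a change of -0.21 (SE 0.17, adjusted p = 0.29), or of -0.12 (SE 0.14) without both pools that stand apart. At DN3 it was at 78.7, 80.8, 185 and 66.3 in control pools and at 121, 142, 112 and 61.8 in TLX1 pools. Every pool but control pool 3 was lower at DN3 than at DN2, and all 8 were lower at DN3 than at DN1. *Ccne1* fell by 0.74 (SE 0.17, adjusted p = 0.014) from DN2 to DN3 and by 0.95 (SE 0.17, adjusted p = 0.00022) from DN1 to DN3. Its main probe set is of a type whose probes can match other transcripts, and the other probe set of the gene fell by 0.64 (SE 0.13, adjusted p = 0.0063) from DN2 to DN3. The fall from DN2 to DN3 in the main probe set did not pass without control pool 1 (-0.67), without TLX1 pool 3 (-0.69) or without the pool as a block (-0.74, adjusted p = 0.14).

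*Cdk2*, the kinase partner of cyclins E and A, ran from 225 to 934 at DN1 with a median of 300.3, from 588 to 829 at DN2 with a median of 713, and from 404 to 1052 at DN3 with a median of 531. It rose by 0.91 (SE 0.20, adjusted p = 0.0011) from DN1 to DN2, in 6 of 8 pools, and by 1.28 (SE 0.12) without both pools that stand apart. From DN1 to DN3 it rose by 0.56 (SE 0.20, adjusted p = 0.027), a call that did not pass without control pool 1, 2 or 4, without TLX1 pool 3 or 4, or without the pool as a block. The lowest of these changes was 0.42, without TLX1 pool 3, and leaving out control pool 3 or TLX1 pool 2 kept the call.

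The opposing regulators Wee1 and Cdc25a both rose. *Wee1*, the inhibitory kinase, was at 172, 179, 511 and 158 in control pools and at 275, 396, 155 and 242 in TLX1 pools at DN1. At DN2 it was at 593, 447, 779 and 448 in control pools and at 559, 595, 561 and 581 in TLX1 pools, and at DN3 at 513, 385, 664 and 431 and at 535, 638, 523 and 443. It was the only one of the 9 genes that was higher at DN2 than at DN1 in all 8 pools, control pool 3 and TLX1 pool 2 included. The rise was 1.24 (SE 0.15, adjusted p = 4.7e-06), or 2.37-fold, and from DN1 to DN3 the difference was 1.10 (SE 0.15, adjusted p = 1.6e-05). Between DN2 and DN3 the change was -0.15 (SE 0.15, adjusted p = 0.54). *Cdc25a*, the activating phosphatase, ran from 185 to 534 at DN1, from 395 to 759 at DN2 and from 391 to 683 at DN3. It rose by 0.95 (SE 0.21, adjusted p = 0.0013) from DN1 to DN2 and was 0.81 higher (SE 0.21, adjusted p = 0.0044) at DN3 than at DN1, with 7 of 8 pools higher in each. The rises from DN1 to DN2 were 1.46 (SE 0.12) for *Wee1* and 1.31 (SE 0.10) for *Cdc25a* without control pool 3 and TLX1 pool 2. The second probe sets of *Wee1* (0.67, adjusted p = 0.0012) and *Cdc25a* (1.27, adjusted p = 0.00023) also rose from DN1 to DN2.

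**Figure D2:**
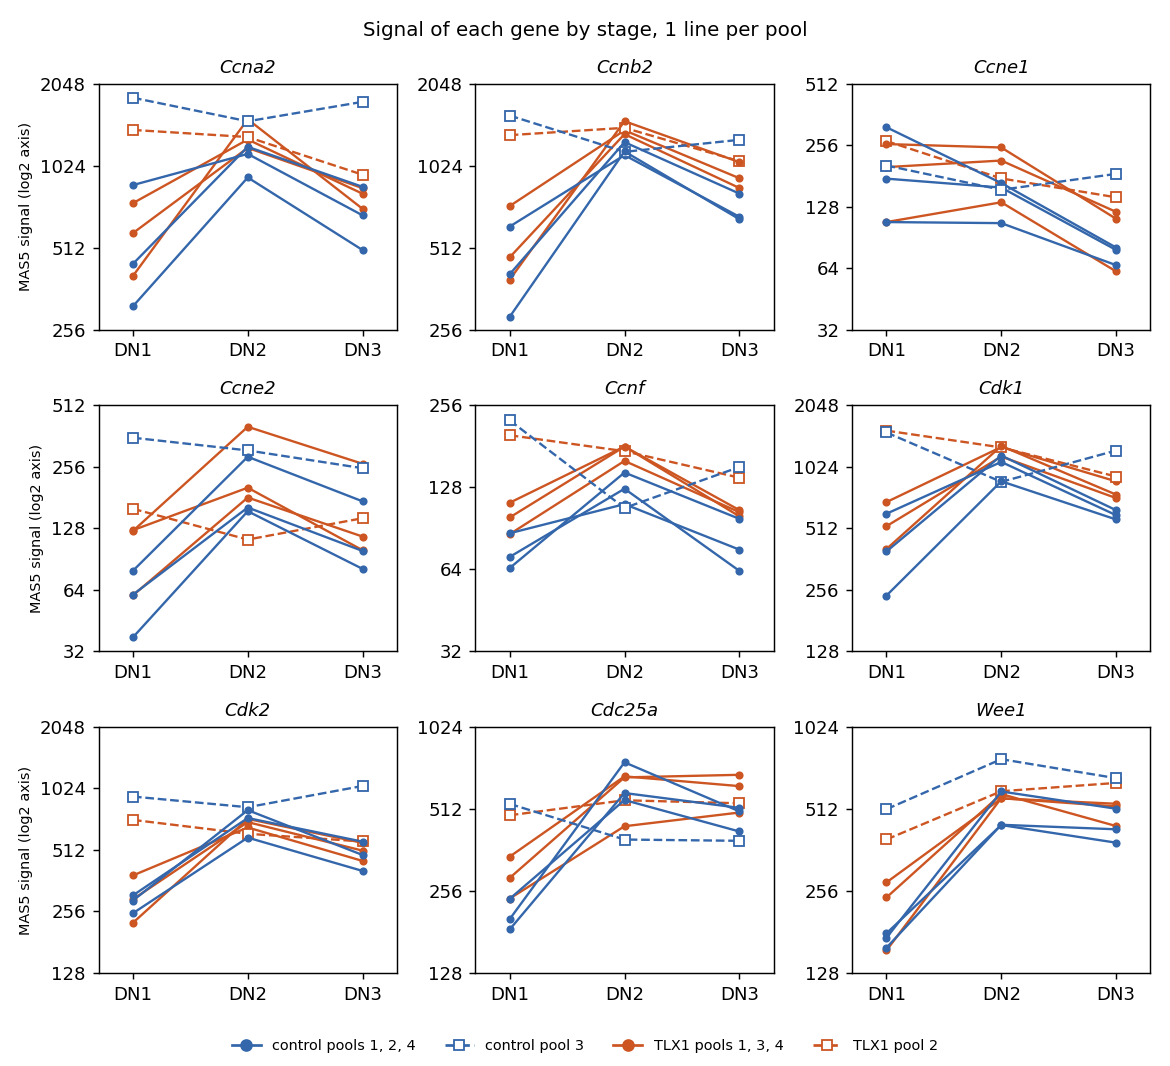
MAS5 signal (log2 axis) of the 9 genes at DN1, DN2 and DN3, with 1 line per pool. Dashed lines with open squares are control pool 3 and TLX1 pool 2, and in the other 6 pools 8 of the 9 genes were higher at DN2 than at DN1, *Ccne1* being the exception.

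Markers of other cells moved with stage as well. All 11 myeloid and dendritic markers and all 7 matched NK markers fell from DN1 to DN2, with median log2 changes of -3.11 and -5.81. The summed myeloid and dendritic signal was 15505 to 42493 at DN1, 2482 to 3178 at DN2 and 1683 to 3232 at DN3, and the NK sum was 13875 to 32538, 4318 to 5748 and 3594 to 5220. The part of these cells in the changes from DN1 was not tested.

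Counted together, 7 of the 9 genes rose and 0 fell from DN1 to DN2. Of the 27022 probe sets tested, 28.5% rose and 31.2% fell, and the median change of the 9 genes was 0.91 against -0.06 over all probe sets. From DN2 to DN3 all 9 had negative changes with a median of -0.52, and 1 fell and 0 rose, against 4.07% and 6.93% of all probe sets and a median of 0.08. From DN1 to DN3, 3 rose (*Cdk2*, *Cdc25a*, *Wee1*) and 1 fell (*Ccne1*), against 30.1% and 25.0%. Without control pool 3 and TLX1 pool 2, 8 genes rose from DN1 to DN2, where 30.3% of all probe sets rose and 31.7% fell. In the same 6 pools 7 genes fell from DN2 to DN3, where 7.30% fell and 8.99% rose. These falls were in *Ccna2* (-0.73), *Ccnb2* (-0.66), *Ccne1* (-0.98), *Ccne2* (-0.77), *Ccnf* (-0.73), *Cdk1* (-0.73) and *Cdk2* (-0.51), with adjusted p values of 0.0031 to 0.030. *Wee1* (-0.17) and *Cdc25a* (-0.18) did not pass. From DN1 to DN3, 7 genes passed without both pools, 6 higher and *Ccne1* lower, where 31.8% and 26.6% of all probe sets did. Leaving out control pool 3 alone gave 4 genes that fell from DN2 to DN3 and leaving out TLX1 pool 2 alone gave 1.

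The share of rises among all calls depended on the scaling. From DN1 to DN2 it was 47.7% as given, 58.7% after quantile normalization and 74.0% after centring each array on its median, which moved the median of all probe sets by 0.34. From DN2 to DN3 it was 63.0%, 45.7% and 18.8%, and from DN1 to DN3 54.6%, 59.6% and 70.2%. The 9 genes had a median change from DN1 to DN2 of 0.89 after quantile normalization and of 1.25 after centring. In both, 8 of them rose. Of all 27022 probe sets, 7702 rose as given, 9312 after quantile normalization and 12720 after centring. Only *Ccne1* changed sign from DN1 to DN2 under a scaling, to 0.13 after centring.

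**Figure D3:**
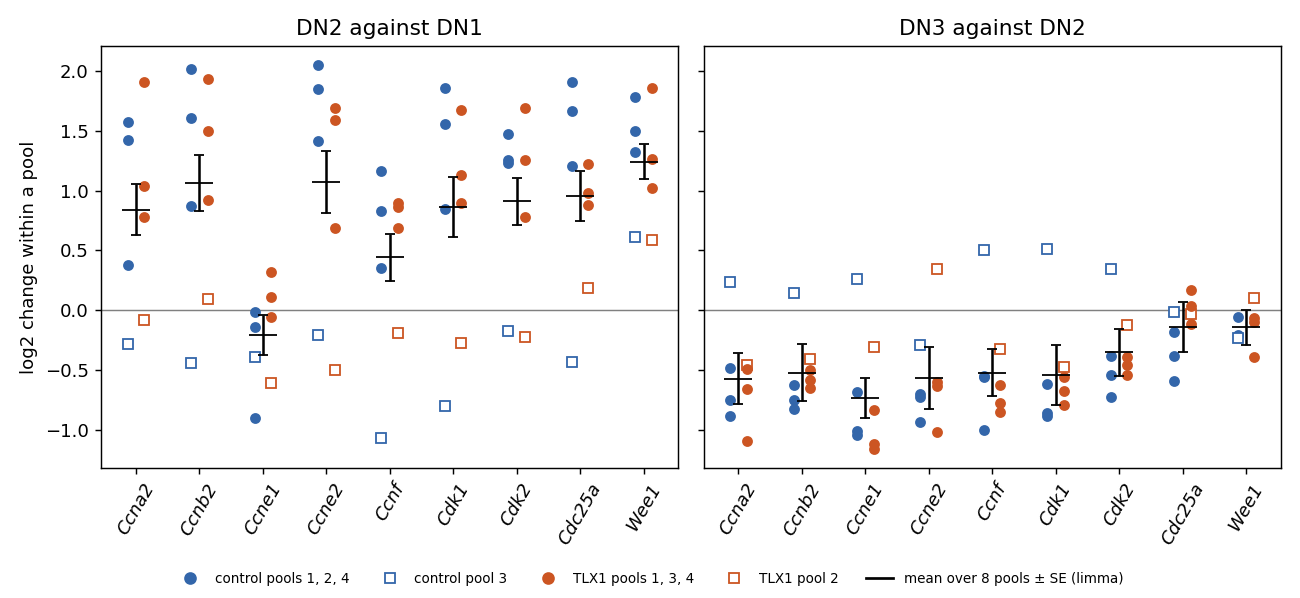
Log2 change within each pool from DN1 to DN2 (left) and from DN2 to DN3 (right) for the 9 genes. Points are pools (open squares for control pool 3 and TLX1 pool 2), and the black bars are the mean over 8 pools ± SE from the limma fit. From DN1 to DN2 the open squares lie below the filled points of the same genotype for all genes except *Ccne1*.

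The 9 genes were next compared with each other over the 24 arrays, as a description, since the arrays share pools and stages. *Ccna2*, *Ccnb2*, *Ccnf* and *Cdk1* had pairwise Pearson correlations of 0.84 to 0.97, and of 0.89 to 0.98 after the mean of each of the 6 groups was subtracted. *Ccne1* had correlations of -0.16 to 0.50 with the other 8 genes, and its correlation with *Ccne2* was -0.12. In each of the 6 groups *Ccne1* was lowest in pool 4, whereas *Ccne2* was highest in TLX1 pool 4 at DN2 and DN3. The part of pool 4 in these correlations was not tested. After group means were subtracted the *Ccne1* correlations were -0.09 to 0.66. Over the 18 arrays of the other 6 pools the first 4 genes had correlations of 0.82 to 0.97 and *Ccne1* of -0.31 to 0.39. That range of the 4 genes was not particular to them. Among the pairs that reached it were *Cdc25a* and *Wee1* (0.94), *Cdk2* and *Wee1* (0.92) and *Ccnb2* and *Cdk2* (0.88). Other pairs without *Ccne1* were lower, down to 0.57 (*Ccna2* and *Ccne2*).

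The 3 genes most like each member were then named by the same correlation over the 24 arrays. For *Ccna2* they were *Bub1* (0.99), a spindle checkpoint kinase, *Shcbp1* (0.98) and *Aspm* (0.98), a spindle pole protein. For *Ccnb2* they were *Ncapg* (0.98), a condensin subunit, *Aurka* (0.98), a spindle kinase, and *Tpx2* (0.98), its activator. For *Cdk1* they were *Prc1* (0.98), *Tacc3* (0.98) and *Cenpe* (0.98), which act on spindle microtubules and kinetochores. *Ccnf* was most like *Espl1* (0.92), *Kif11* (0.91) and *Kpna2* (0.91), and *Ccne2* most like *Trim59* (0.95), *Cenpl* (0.94) and *Ect2* (0.94). *Wee1* was most like *Sass6* (0.97), *Atad5* (0.96) and *Psip1* (0.96), *Cdk2* most like *Angptl4* (0.96), *Ccp110* (0.95) and *Eri1* (0.94), and *Cdc25a* most like *Gtf2h3* (0.93), *Tsr2* (0.92) and *Csrp1* (0.92). *Ccne1* was most like *Samd1* (0.87), *Zkscan17* (0.87) and *Cgas* (0.85).

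**Figure D4:**
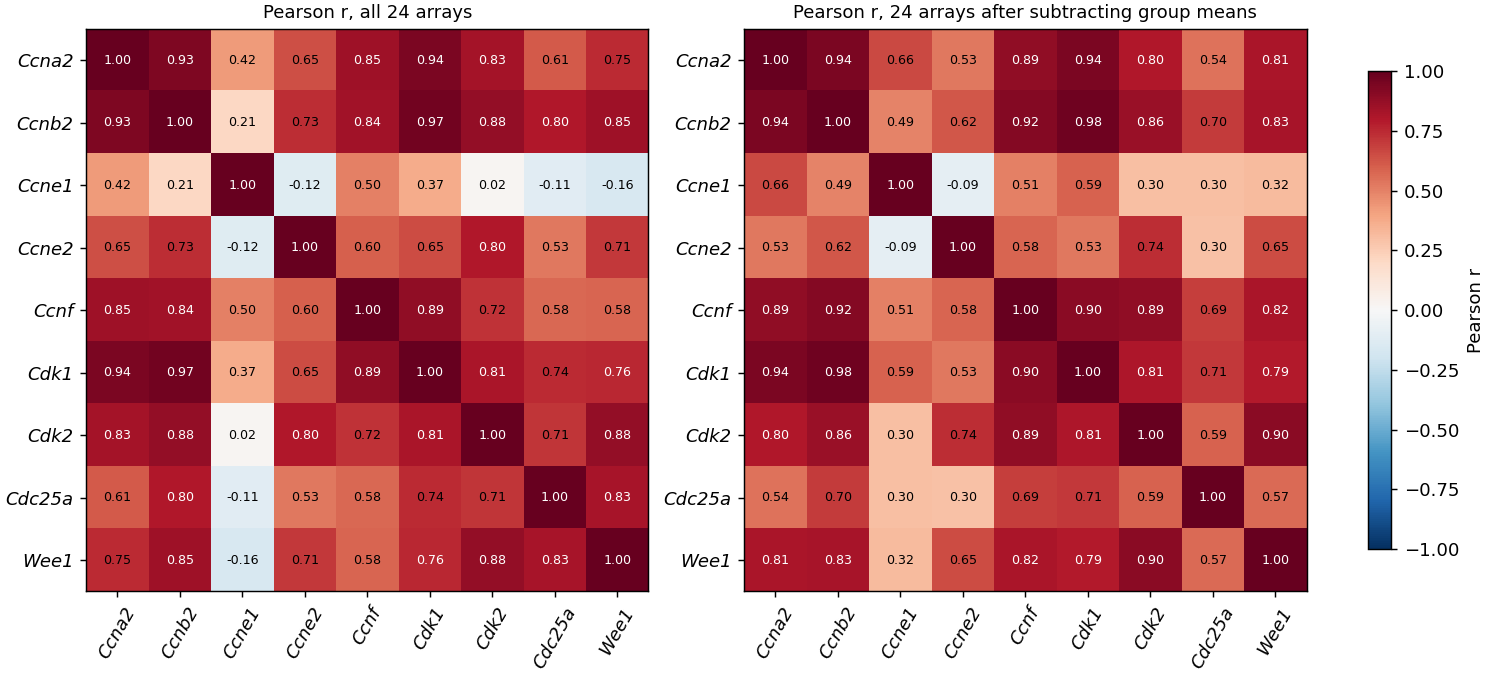
Pearson correlations between the 9 genes over 24 arrays (left) and over the same arrays after the mean of each genotype and stage was subtracted (right). *Ccna2*, *Ccnb2*, *Ccnf* and *Cdk1* correlate at 0.84 to 0.97 with each other on the left, a range that some pairs with *Cdk2* also reach (*Cdk2* and *Wee1*, 0.88), and the *Ccne1* row is the palest, down to -0.16.

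Other genes of the same machinery were read from lists. Of 24 kept S phase genes, 24 rose from DN1 to DN2 with a median of 1.10, among them *Ung*, a uracil glycosylase (1.44), *Gins2*, a part of the replicative helicase (1.60), *Cdt1*, a replication licensing factor (0.86) and *Cdc7*, a kinase that fires origins (1.05). Of 24 kept G2 and M phase genes, 23 rose with a median of 0.99, among them *Tpx2* (1.21), *Ttk*, a spindle checkpoint kinase (1.22), *Incenp*, a chromosomal passenger (0.60) and *Pttg1*, securin (0.65). From DN2 to DN3 1 of the S phase genes fell, *Cdt1* (-0.37, adjusted p = 0.022), and 3 of the G2 and M phase genes, *Incenp* (-0.43), *Pttg1* (-0.49) and *Mki67* (-0.51), a proliferation marker. All 24 members of each list had negative changes, with medians of -0.40 and -0.57. Without control pool 3 and TLX1 pool 2, 17 of the S phase genes and 23 of the G2 and M phase genes fell, with medians of -0.45 and -0.74, and all 24 of each list rose from DN1 to DN2.

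Of 17 kept other regulators of Cdk1 and Cdk2, 12 rose and 2 fell from DN1 to DN2. The largest rise was that of *Cdkn1a*, which encodes the Cdk inhibitor p21 (3.17, adjusted p = 5.0e-10), while *Cdkn1b*, which encodes the inhibitor p27, fell by 1.17. *Mnat1* (0.75) and *Ccnh* (0.70), subunits of the Cdk-activating kinase, rose. Between DN2 and DN3 *Chek2*, a checkpoint kinase, fell by 0.51. Of 23 genes of cyclin destruction 15 rose and 2 fell from DN1 to DN2, among them the anaphase-promoting complex subunits *Cdc26* (0.73), *Cdc27* (0.84), *Cdc16* (0.64) and *Anapc7* (0.45). After DN2 *Fbxw7*, the receptor of the ligase that degrades cyclin E, rose by 0.33 (adjusted p = 0.0060), and was the only 1 of 23 to pass. Without control pool 3 and TLX1 pool 2, 8 of the 17 regulators and 6 of the 23 destruction genes fell from DN2 to DN3 and 2 and 1 rose. Of 5 kept other cyclins and Cdks, *Cdk6* (1.52) and *Cdk4* (1.19) rose from DN1 to DN2 and 3 fell, among them the D cyclins *Ccnd1* (-1.47) and *Ccnd3* (-0.60).

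At each stage the TLX1 pools were set against the control pools, to ask whether the transgene altered these genes. None of the 9 passed limma's adjusted test at DN1, DN2 or DN3. Over all probe sets 0.00370% passed at DN1, 0.00370% at DN2 and 0.0185% at DN3, and the unpaired test of the study's methods called 0 of the 9 at each stage after Benjamini-Hochberg adjustment. At an unadjusted p under 0.05, 0 of the 9 were at DN1, 3 at DN2 and 0 at DN3, where 1.03%, 1.45% and 4.24% of all probe sets were higher in TLX1 pools. The 4 TLX1 values lay wholly above the 4 control values for 0, 2 and 0 genes, against 0.725%, 1.39% and 2.64% of all probe sets.

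At DN1 the log2 fold changes ran from -0.05 (*Cdk2*) to 0.35 (*Cdk1*) with SEs of 0.37 to 0.65, and each was smaller than its SE. Without control pool 3 and TLX1 pool 2 some DN1 differences exceeded their SE. They were those of *Ccne2* (0.79, SE 0.40), *Cdc25a* (0.46, SE 0.20), *Cdk1* (0.45, SE 0.38), *Ccnf* (0.42, SE 0.19) and *Wee1* (0.36, SE 0.25). Those of the remaining genes did not, and none passed. At DN2 *Ccnf* was at 181, 174, 181 and 160 in TLX1 pools 1 to 4 and at 145, 111, 108 and 126 in control pools, and the groups did not overlap. Its log2 fold change was 0.51 (SE 0.14), or 1.43-fold, with an unadjusted p of 0.0059 and an adjusted p of 1.00 in limma. It was the only 1 of the 9 to reach the thresholds of the study's methods, a fold of at least 1.4 with an unadjusted p no higher than 0.05, which 0.925% of all probe sets reached with higher TLX1 values. The other *Ccnf* probe set had 0.13 (SE 0.39). The second probe set of *Ccna2* had 0.51 (SE 0.22, unadjusted p = 0.046, adjusted p = 1.00 in limma) at DN2, where its main probe set had 0.17 (SE 0.17), and the second of *Ccne1* had 0.22 (SE 0.19) where the main one had 0.39 (SE 0.23). *Ccnb2* had a difference of 0.27 (SE 0.11, unadjusted p = 0.046 in limma), also with no overlap, and *Cdk1* one of 0.34 (SE 0.14, unadjusted p = 0.046 in limma), with TLX1 values of 1149 to 1295 and control values of 864 to 1162. Without control pool 3 and TLX1 pool 2 these differences were 0.45, 0.26 and 0.27. At DN3 the differences ran from -0.17 (*Cdk2*) to 0.35 (*Cdc25a*, SE 0.16, adjusted p = 0.85). Without both pools they ran from 0.07 (*Cdk2*, SE 0.19) to 0.41 (*Ccnb2*, SE 0.17), and none passed.

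An index of RNA quality differed between genotypes at DN3. The 3′/5′ index sets the 3′ probe sets of *Gapdh* and *Actb* against the 5′ ones in log2 units, and high values mean RNA with less of its 5′ end labelled. It was 0.06 ± 0.07 (SD, n = 4) for TLX1 at DN1 against 0.26 ± 0.16 for control (exact permutation test, two-sided p = 0.086). At DN2 the values were 0.22 ± 0.11 for TLX1 and 0.52 ± 0.33 for control (exact permutation p = 0.057). Control pool 3 was at 0.99 there, and without it the control mean was 0.36 ± 0.11 (SD, n = 3, exact permutation p = 0.11). At DN3 the values were 0.18 ± 0.11 for TLX1 and 0.53 ± 0.03 for control (exact permutation p = 0.029, the smallest p that 4 against 4 can give). With this index as a covariate the DN2 differences were 0.37 for *Ccnf*, 0.26 for *Ccnb2* and 0.21 for *Cdk1*. At DN1 the 8 genes with positive differences turned negative, to between -0.92 and -0.05, while *Cdk2* moved from -0.05 to -1.06. The DN1 index was 0.04 in control pool 3, against 0.25 to 0.41 in the other control pools, and 0.03 in TLX1 pool 2. These pools had the high cell cycle signals at DN1, so the covariate fit there cannot well separate the index from them. At DN3 the index ran from 0.10 to 0.34 in TLX1 pools and from 0.50 to 0.57 in control pools. With no overlap, the covariate fit there cannot well separate index and genotype. *Ccne2* moved from 0.08 (SE 0.42) to 1.56 (SE 1.09) at DN3 and *Ccne1* from 0.15 (SE 0.37) to -1.55 (SE 0.86). None of the 9 genes passed with the covariate at any stage.

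**Figure D5:**
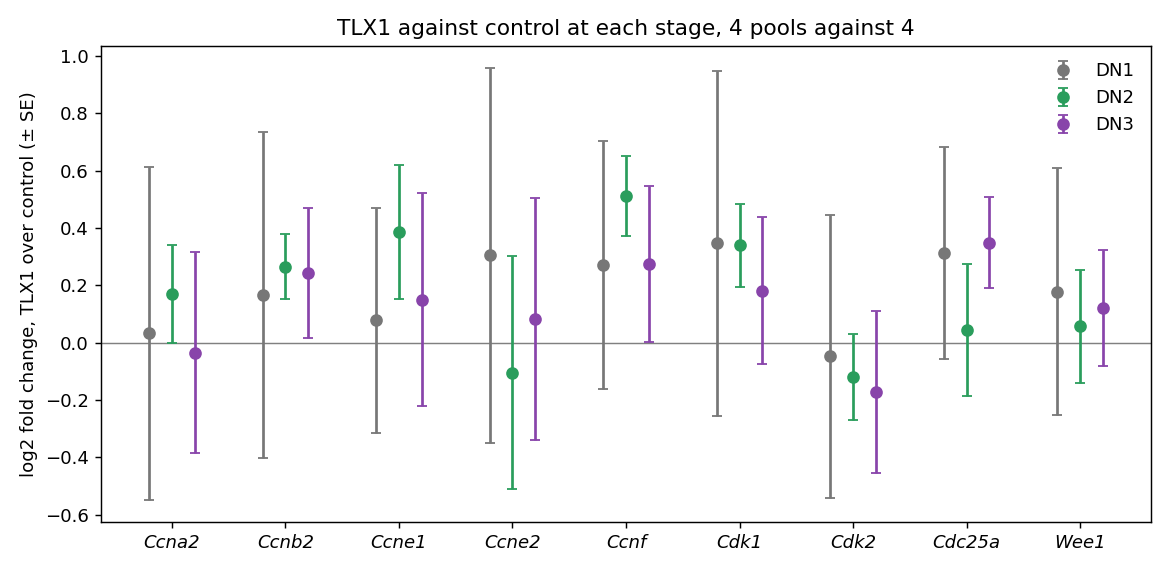
Log2 fold change of TLX1 over control ± SE (limma, 4 pools against 4) for the 9 genes at DN1 (grey), DN2 (green) and DN3 (purple). The bars are widest at DN1, and *Ccnf* at DN2 has the highest point, 0.51.

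None of the genes of the other 5 cell cycle lists passed between genotypes at any stage. Of the 24 G2 and M phase genes 23 had positive values at DN1, 22 at DN2 and 20 at DN3, with medians of 0.23, 0.25 and 0.12, where the medians of all probe sets were 0.01, -0.02 and 0.01. Of the 24 S phase genes 17, 11 and 3 had positive values, with medians of 0.05, -0.02 and -0.07. Of all 27022 probe sets 13928, 12694 and 13955 had positive values. Genes of the G2 and M phase list such as *Bub1*, *Aurka* and *Tpx2* varied closely with members over the arrays, so these counts are not of independent genes. The list values are given over all pools and without the 3′/5′ index as a covariate.

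The change between stages was also compared between the genotypes. No interaction passed for any of the 9 genes, with or without control pool 3 and TLX1 pool 2, 0 had an unadjusted p under 0.05 in limma over all pools, and 0% of all probe sets passed for DN2 against DN1, for DN3 against DN2 and for DN3 against DN1. From DN1 to DN2 the difference of the TLX1 effects ran from -0.41 (*Ccne2*, SE 0.51) to 0.31 (*Ccne1*, SE 0.34). Within each genotype 8 of the 9 genes had positive changes from DN1 to DN2, with medians of 0.87 in TLX1 pools and 0.95 in control pools. In each genotype 5 of the 9 passed, all higher at DN2. Of all 27022 probe sets, 12524 had positive changes in TLX1 pools and 12777 in control pools. Those that passed were 6155 higher and 6777 lower in TLX1 pools, and 5926 higher and 6159 lower in control pools.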

How the data were processed

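The 24 arrays were Affymetrix 3′ expression arrays of 100 ng labelled total RNA. The deposited intensity values are MAS5 signals, which the authors made with Affymetrix Expression Console by the submitters' processing notes, scaled to a trimmed mean (2%) of 150 per array, and versions are not given in the sources used here. The number of arrays limits the precision.

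Signals were floored at 1 and taken to log2. The 64 control probe sets were left out first. Of the remaining 45037 probe sets, the 60% with the highest mean (27022, lowest mean as signal 9.02) were tested with limma 3.58.1 in R 4.3.3. A call is a Benjamini-Hochberg adjusted p under 0.05. Stages were compared over 24 arrays with the pool as a block, averaged over genotypes, since 3 arrays share each pool. Genotypes were compared at each stage over 8 arrays. The members and lists were chosen with earlier results of these data known. Named genes are the members, the 4 of lowest p in each cell cycle list and the 3 of highest correlation with each member. The pools and the DN1 genes singled out (*Rag1*, *Ptcra*) were chosen with their values known. Some entries of the marker lists had no probe set in the annotation used here. Other markers than those of the T, NK and myeloid lists were also read at DN1: mast and basophil sums were 640 to 1965, B lineage 286 to 1016, stromal and epithelial 211 to 355 and erythroid 21.6 to 176. Alternatives were quantile normalization, median centring, no filter or 40% kept, an offset of 32, the median of a gene's probe sets, a 3′/5′ index covariate, other treatments of the pool and leaving out pools. Labels do not say that equal pool numbers link genotypes. Scripts were tested on simulated data.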

Additional observations from a re-analysis of the deposited data

Results flagged for a closer look

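In 54 groups of 4 pools (9 genes, 6 groups), 6 had a highest or lowest pool far from the other 3 by Dixon's ratio, and chance flags about 1 group in 20. *Wee1* was highest in control pool 3 at DN1 (510.9), and *Cdk2* was also highest there (934.2). *Cdk1* was highest in control pool 3 at DN3 (1230). *Ccnf* was highest in TLX1 pool 2 at DN3 (138.9). *Cdk1* was lowest in TLX1 pool 3 at DN2 (1149), and *Ccne1* was lowest in control pool 4 at DN2 (106.4). Pool 4 was also the lowest pool for *Ccne1* in every other group, of both genotypes.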

How the results depend on the processing

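The 7 genes called higher at DN2 than at DN1 became 7 or 8 under every alternative run. From DN2 to DN3 the count of 1 became 2 with centring on the median and 2 when the 3′/5′ index entered the fit, 0 with no replicate block, and 7 without TLX1 pool 2 and control pool 3. Leaving out 1 pool at a time gave 0 to 4, with 0 without control pool 1 or TLX1 pool 3 and 4 without control pool 3. From DN1 to DN3 the count of 4 became 7 with the index and 7 without both pools. Leaving out 1 pool at a time gave 3 to 6, and after median centring 5 genes rose and 1 fell. Signs turned for *Ccne1* from DN1 to DN2 after median centring (0.13), for *Cdk2* from DN2 to DN3 with the median of a gene's probe sets (0.015), and for *Ccnf* from DN1 to DN3 after median centring (0.11), with that median (0.080), with the index (0.27) and without both pools (0.071). The other *Cdk2* probe set had a mean signal of 1.49, near the floor of 1, so values from that median say little about *Cdk2*.

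TLX1 against control gave 0 calls among the 9 genes at each stage under every alternative run, and 53 of 540 single values changed sign. The values given next are those that changed sign. With the index as a covariate they were at DN1 *Ccna2* -0.92, *Ccnb2* -0.87, *Ccne1* -0.050, *Ccne2* -0.87, *Ccnf* -0.54, *Cdk1* -0.70, *Cdc25a* -0.42 and *Wee1* -0.65, at DN2 *Ccne2* 0.38 and *Cdc25a* -0.34, and at DN3 *Ccne1* -1.55, *Ccnf* -0.061, *Cdk1* -0.29, *Cdc25a* -0.15 and *Wee1* -0.56. With no change of sign, the index moved *Cdk2* to -1.06 at DN1 and *Ccne2* to 1.56, *Ccna2* to -0.75 and *Cdk2* to -0.55 at DN3. The SEs of the DN3 values with the index were 0.41 (*Cdc25a*) to 1.09 (*Ccne2*). With the median of a gene's probe sets *Cdk2*, whose other probe set lay near the floor, was 0.059 at DN2 and *Ccna2* 0.15 at DN3. Without both pools *Ccne1* was -0.028 and *Cdk2* 0.063 at DN1, *Ccne2* 0.34 and *Cdc25a* -0.10 at DN2, and *Ccna2* 0.25 and *Cdk2* 0.071 at DN3. Leaving out 1 pool at a time gave, at DN1, *Ccna2* -0.35 to 0.50, *Ccnb2* -0.18 to 0.65, *Ccne1* -0.19 to 0.37, *Ccne2* -0.11 to 0.97, *Cdk1* -0.045 to 0.84, *Cdk2* -0.37 to 0.39 and *Wee1* -0.038 to 0.57. At DN2 it gave *Ccne2* -0.44 to 0.18, *Cdc25a* -0.12 to 0.19 and *Wee1* -0.045 to 0.22, and at DN3 *Ccna2* -0.28 to 0.32, *Ccne1* -0.017 to 0.48, *Ccne2* -0.21 to 0.38 and *Cdk2* -0.35 to 0.11. The cause was not tested. Leaving both pools out of the lists and correlations, and control pool 3 out of the index, was chosen after seeing the data.

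With the pool number as a replicate block between genotypes 0 members were called at each stage. Same-numbered pools correlated at -0.34 to 0.48 after group means were subtracted. Only number 4 correlated best with itself, at DN1 (0.48), DN2 (0.40) and DN3 (0.37), so the numbers as a whole were not taken to pair the samples. Whether the pools numbered 4 share a batch was not tested. The methods' t-test called 272, 394 and 822 probe sets at a fold of at least 1.4 with an unadjusted p no higher than 0.05, and 0, 0 and 4 after Benjamini-Hochberg adjustment.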
